A study of Hydrangea macrophylla with 27 samples.

Results

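The transcripts described here are the flavonoid and anthocyanin clusters of the stem of Hydrangea macrophylla, a garden hydrangea. A cluster is a group of assembled transcripts that stands for a gene or a piece of one. Of 142016 clusters, 52 had a best Swiss-Prot match whose description names chalcone, flavanone, flavonol, flavonoid, anthocyanin or anthocyanidin, leucoanthocyanidin or dihydroflavonol, and 50 of these had at least 100 expected counts over all libraries. The other 2 had 10 and 7 counts in all. The 50 clusters comprise 3 chalcone synthases, 2 chalcone isomerases, 9 flavanone and flavonoid oxygenases, 4 flavonol synthases, 4 dihydroflavonol reductases, 5 leucoanthocyanidin and anthocyanidin enzymes, 20 transferases and 3 others. Of the last 3, 2 match ANTHOCYANINLESS 2, a homeobox transcription factor and not an enzyme.

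Micro-cuttings of the cultivar 'Wudu', with genotype WT throughout, were grown in pots in a chamber with 16 h of light per day. Bent plants had their stems pushed over by a moving plastic curtain 12 times on 1 morning, to an angle of 30 degrees. Whole stems of bent plants and of unbent plants were collected at 1, 3, 24 and 72 h, and unbent stems also 15 min before bending. Bending ran between 9 and 10 in the morning, and the labels do not say from which moment of it the hours are counted. Each of these 9 groups has 3 libraries, which the labels call biological replicates. Plants may have been pooled, as the sources used here do not say how many gave 1 library.

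Flavonoids are made from coumaroyl-CoA, a product of the general phenylpropanoid pathway, and malonyl-CoA. Chalcone synthase joins them to a chalcone, chalcone isomerase closes the ring to a flavanone, and oxygenases add hydroxyl groups to give dihydroflavonols. Flavonol synthase then leads to flavonols, whereas dihydroflavonol reductase leads to leucoanthocyanidins and from there to anthocyanins and to the building blocks of condensed tannins. Glycosyl-, acyl- and methyltransferases decorate the products, which serve in plants as pigments, ultraviolet screens and defence compounds.

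The libraries held 14.4 to 23.1 M expected counts (median 17.2 M). Ribosomal RNA clusters took 2.69% to 8.45% of the counts, and over 5% in 3 libraries, which were replicate 2 before bending, replicate 2 of bent stems at 1 h and replicate 2 of bent stems at 3 h. Clusters that match Hydrangea ringspot virus took 2.32% of the counts (replicate 2 of bent stems at 3 h) to 6.88% (replicate 1 of bent stems at 24 h). Every library thus held virus reads, and their part in the values below was not tested. Marker transcripts of the tissues of a stem were present. Before bending, xylem markers summed to 1006 to 1197 CPM (counts scaled to library size with TMM factors) and phloem markers to 498 to 637 CPM. Epidermis markers summed to 156 to 182 CPM and green tissue markers to 5422 to 6225 CPM. None of the 23 xylem, 15 phloem, 10 epidermis and 36 green tissue marker clusters was at 0 in every library. That alone says little, as green tissue marker Cluster-504.0 had only 5 counts in all. Whole stems mix these tissues, so fewer cells of a type and less RNA per cell cannot be told apart.

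The names rest on similarity to other plants. Of the 50 clusters, 15 also carried a KEGG orthology term of the flavonoid pathway, 5 carried another term and 30 carried none. The best match in the NCBI protein collection had a flavonoid word in its description for 38 clusters and none for 12. The Swiss-Prot match of 6 clusters had an E value above 1e-30. Lengths ran from 492 to 5605 bases (median 1530), and 11 clusters had a fractional expected count in at least 1 library, as reads that match several transcripts give.

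In unbent and bent stems together, a few clusters held most of the signal. Levels are given per length as FPKM, averaged over the 27 libraries, and ranged from 0.294 to 126 FPKM with a median of 2.30. Together the clusters took 0.0444% to 0.0667% of the counts of a library. A glucosyltransferase, Cluster-9242.54272, reached 126 FPKM (98.2 to 163 across libraries) and made up 31.5% of the summed level of 399 FPKM. Its best Swiss-Prot match is the Arabidopsis flavonol 7-O-glucosyltransferase UGT74F1, but its orthology term is SGT1, a pathogen-inducible salicylic acid glucosyltransferase. Its substrate in hydrangea is thus not settled by the annotation.

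The next 3 were enzymes of the early pathway. Chalcone synthase Cluster-9242.64822 averaged 51.1 FPKM (28.9 to 91.4), chalcone isomerase Cluster-9242.23836 averaged 50.4 FPKM (39.2 to 59.5) and flavonol synthase Cluster-9242.88569 averaged 31.0 FPKM (19.7 to 37.2). The ranges of the first 2 overlap. For the flavonol synthase, the best NCBI protein match is a flavanone 3-hydroxylase, an enzyme of the same oxygenase family that acts 1 step earlier. The fifth cluster at 10 FPKM or more was the homeobox factor Cluster-9242.53804 at 12.2 FPKM.

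The branch towards anthocyanins was at lower levels. Among 4 dihydroflavonol reductases, Cluster-20241.0 had the highest mean, 5.25 FPKM (2.21 to 10.6). Leucoanthocyanidin reductase, Cluster-9242.97863, which makes a tannin building block, averaged 3.72 FPKM. Anthocyanidin reductase Cluster-28451.0, which does so by another route, averaged 2.07 FPKM, and its libraries spread from 0.06 to 5.76 FPKM. Anthocyanin synthase, Cluster-28323.0, which forms the coloured anthocyanidins, averaged 1.88 FPKM. Flavonoid 3'-monooxygenase Cluster-9242.25872, which adds a hydroxyl group to the B ring, averaged 1.94 FPKM, and flavonoid 3',5'-hydroxylase Cluster-27248.0, needed for delphinidin-type pigments, averaged 0.601 FPKM. In all, 11 clusters were under 1 FPKM.

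**Figure D1:**
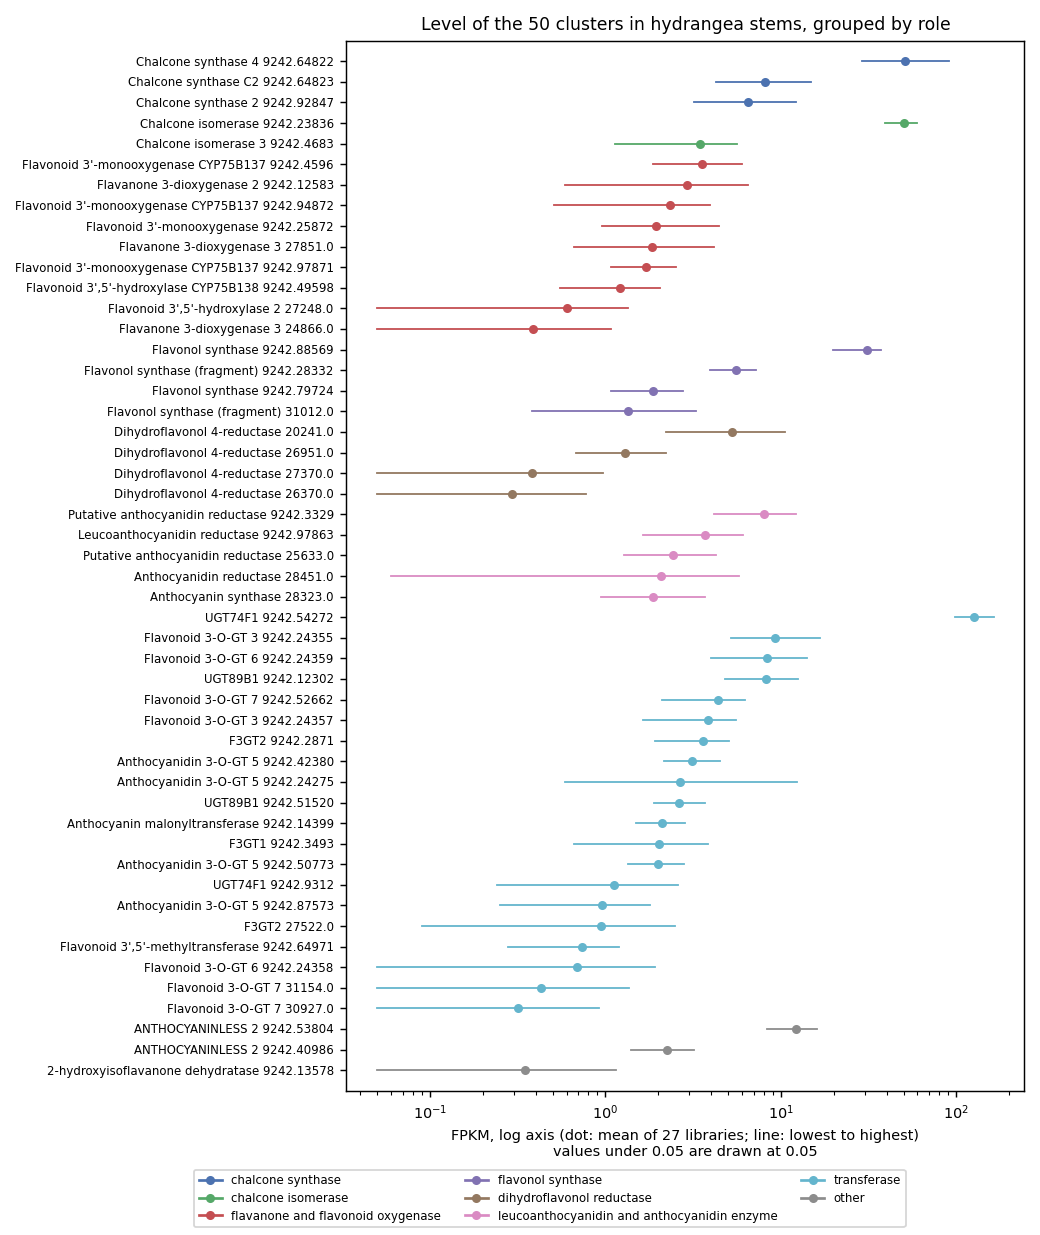
Mean level of each of the 50 clusters in FPKM on a log axis (dot), with the lowest and highest of 27 libraries (line), grouped by role. In a label, (fragment) is part of the name of the matched entry. The UGT74F1-like transferase at 126 FPKM stands above chalcone synthase Cluster-9242.64822 at 51.1 FPKM and chalcone isomerase Cluster-9242.23836 at 50.4 FPKM, and 11 clusters lie under 1 FPKM.

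A further chalcone synthase match, Cluster-9242.64823, averaged 8.11 FPKM. It is 938 bases long and matches maize chalcone synthase C2 with an E value of 4.1e-21. Its best NCBI protein match is a stilbenecarboxylate synthase of Hydrangea macrophylla itself. That enzyme uses the same kind of substrates as chalcone synthase but yields a stilbene carboxylic acid, so this cluster may not take part in flavonoid synthesis. Chalcone synthase Cluster-9242.92847 averaged 6.52 FPKM, and its match to tea chalcone synthase 2 had an E value of 7.7e-208.

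The effect of bending was tested at each time against unbent stems with edgeR's quasi-likelihood test on counts, with Benjamini-Hochberg adjustment over all 52918 clusters that passed a filter on low counts. Of the 50 clusters, 45 passed the filter. The 5 that did not, with 0 to 1.11 CPM (counts scaled to library size with TMM factors) in any library, were Cluster-26370.0, Cluster-24866.0, Cluster-9242.13578, Cluster-31154.0 and Cluster-9242.9312. They comprise a dihydroflavonol reductase, a flavanone 3-dioxygenase, a 2-hydroxyisoflavanone dehydratase and 2 glucosyltransferases.

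Bending changed few of these transcripts. At 1 h after bending, 0 of 45 passed an adjusted p of 0.05 by edgeR, where 1.93% of all clusters tested did. At an unadjusted p under 0.05 there were 3, against 10.5% of all clusters, while DESeq2 and limma on FPKM also called 0. At 3 h 1 of 45 was lower in bent stems, where 5.08% of all clusters were called in either direction and 2.03% were lower. At an unadjusted p under 0.05 there were 6 of 45, against 15.8% of all clusters in either direction. All 6 were lower, but the share of all clusters that were lower at this p was not taken. At 24 h 1 of 45 was higher, where 0.0246% of all clusters (13) were called and 0.0113% were higher. At 72 h 0 of 45 were called, where 0% of all clusters were. At that time 9 of 45 were under an unadjusted p of 0.05, against 5.45% of all clusters in either direction, and DESeq2 and limma also called 0. At the 2 early times the members were thus called no more often than clusters in general.

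**Figure D2:**
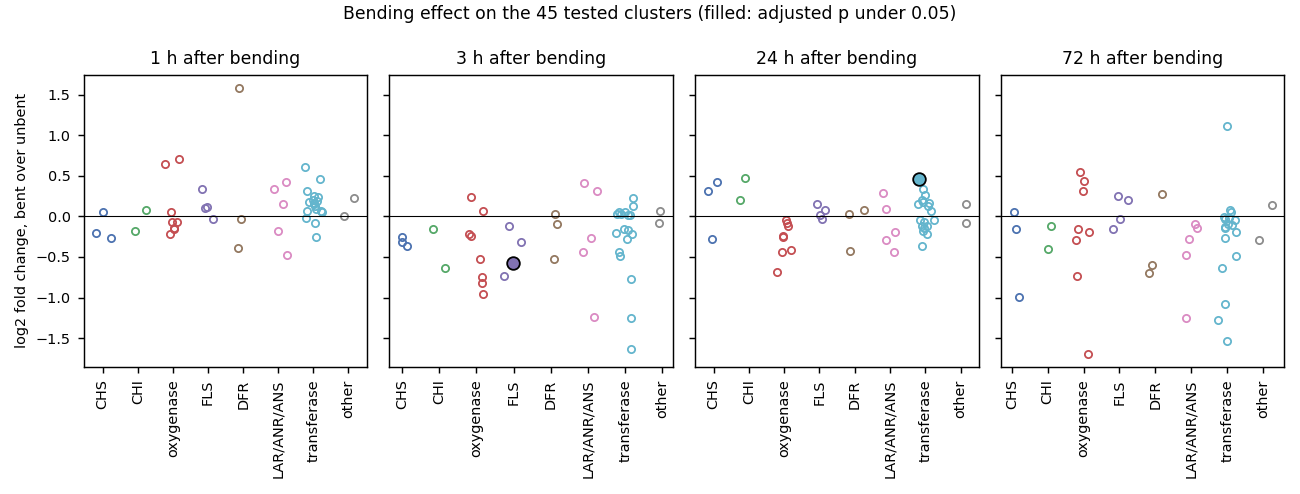
Log2 fold change of bent over unbent stems at 1, 3, 24 and 72 h for the 45 tested clusters, by role (CHS, chalcone synthase; CHI, chalcone isomerase; FLS, flavonol synthase; DFR, dihydroflavonol reductase; LAR/ANR/ANS, leucoanthocyanidin and anthocyanidin enzymes). Filled points passed an adjusted p of 0.05, which are the flavonol synthase-like Cluster-9242.28332 at 3 h and the UGT74F1-like cluster at 24 h.

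The direction of the fold changes differed between times, although most were within the error of a single cluster. The median log2 fold change of bent over unbent stems over the 45 clusters was 0.08 at 1 h, -0.22 at 3 h, -0.04 at 24 h and -0.15 at 72 h, while over all clusters it was within 0.01 of 0 at each time. Single libraries moved some of these medians, in fits that tested 47 or 48 of the clusters. Without replicate 2 of bent stems the median at 1 h was 0.01, with 24 of 48 clusters below 0, and without replicate 3 of bent stems or replicate 1 of unbent stems it was 0.12. At 24 h it was 0.05 without replicate 1 of bent stems or replicate 3 of unbent stems, -0.08 without replicate 2 of either group and -0.00373 without replicate 1 of unbent stems. Without replicate 3 of unbent stems the median at 72 h was -0.05, with 27 of 48 clusters below 0. At 3 h it was -0.27 to -0.17 over the 6 such fits. With all libraries, values below 0 were found for 16 of 45 clusters at 1 h, 31 at 3 h, 24 at 24 h and 34 at 72 h, where 49.1% to 51.3% of all clusters were below 0. The bending effect at 3 h minus that at 1 h was below 0 for 40 of 45 clusters, with a median of -0.30, against 49.0% of all clusters and a median of 0.01. In that comparison edgeR called 0 of 45, where it called 0.841% of all clusters. DESeq2 and limma also called 0, and 4 of 45 were under an unadjusted p of 0.05, against 9.18% of all clusters. Both effects use libraries of their own time only. Some of the clusters vary together, as described below, although the median correlation over all 990 pairs of tested clusters was 0.04. The clusters also share libraries, so these counts are a description.

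Chalcone synthase and chalcone isomerase, the entry enzymes, did not pass the test at any time. Chalcone synthase Cluster-9242.64822 had 72.8, 65.4 and 68.5 CPM in bent stems at 24 h, against 47.9, 45.6 and 60.7 CPM in unbent stems. The groups did not overlap, but the log2 fold change of 0.42 ± 0.16 (standard error) had an adjusted p of 0.669. Without the filter on low counts the same difference passed, with an adjusted p of 0.00645. At 3 h the same cluster had 39.4, 58.6 and 54.6 CPM in bent stems, against 59.9, 62.6 and 60.2 CPM in unbent stems (log2 fold change -0.26 ± 0.16, adjusted p = 0.491). Its bent libraries were all below the unbent ones at 3 h and all above them at 24 h. How often groups of 3 libraries do not overlap was not counted over all clusters. Such separation is therefore given here and below as values only.

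Chalcone isomerase Cluster-9242.23836 varied little. It had 42.7, 37.7 and 37.4 CPM in bent stems at 3 h, against 41.3, 46.9 and 42.7 CPM in unbent stems, and at 24 h 56.1, 48.7 and 54.2 CPM in bent stems, against 47.0, 41.3 and 50.5 CPM in unbent stems. The groups overlapped at both times, with adjusted p-values of 0.401 and 0.712. The second isomerase, Cluster-9242.4683, matches Arabidopsis chalcone isomerase 3 and had log2 fold changes of -0.18 ± 0.30 at 1 h and -0.64 ± 0.33 at 3 h (adjusted p = 0.92 and 0.346).

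Chalcone synthase Cluster-9242.92847 differed most at 72 h. It had 5.04, 4.41 and 5.72 CPM in bent stems, against 9.75, 10.2 and 10.1 CPM in unbent stems, so the groups did not overlap. The log2 fold change was -0.99 ± 0.41, with an adjusted p of 0.871 in the fit over all libraries. In a fit of the 6 libraries of 72 h alone, the adjusted p was 0.0230. The spread of this cluster in other groups was wide, for example 8.24, 15.2 and 9.04 CPM before bending.

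Among the 8 tested clusters that match flavanone and flavonoid oxygenases, which hydroxylate the flavonoid skeleton, none passed the test at any time after bending. Their log2 fold changes ranged from -0.21 to 0.71 at 1 h, -0.95 to 0.24 at 3 h, -0.68 to -0.05 at 24 h and -1.69 to 0.54 at 72 h. Flavanone 3-dioxygenase Cluster-27851.0 had 7.86, 7.30 and 6.21 CPM in bent stems at 1 h, against 5.68, 3.69 and 4.29 CPM in unbent stems and 3.35, 3.49 and 2.68 CPM before bending. These 3 groups did not overlap, but the difference between bent and unbent stems had an adjusted p of 0.276 (log2 fold change 0.65 ± 0.26). Flavonoid 3'-monooxygenase Cluster-9242.25872 had 1.95, 1.61 and 2.79 CPM in bent stems at 72 h, against 2.78, 3.37 and 4.38 CPM in unbent stems, and these groups overlapped narrowly (adjusted p = 0.871).

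The flavonol synthases gave the call at 3 h. Cluster-9242.28332, 1419 bases long, matches a flavonol synthase entry that is itself a fragment, with an E value of 7.0e-33. Its best NCBI protein match is also flavonol synthase-like, but it carries no orthology term. It had 5.76, 5.32 and 4.83 CPM in bent stems, against 8.05, 7.17 and 8.49 CPM in unbent stems. All 3 bent libraries were below all 3 unbent ones. It fell by 0.58 ± 0.18 on the log2 scale, with an adjusted p of 0.0453 by edgeR. The call was lost when any 1 of the 6 libraries was left out, with log2 fold changes of -0.65 to -0.52, and also without the 3 libraries richest in ribosomal RNA. It was lost without the low-count filter and in a fit of the 6 libraries alone too, so it lies at the edge of the threshold. The call remained under the other 6 settings, among them DESeq2 and limma on FPKM. Over all settings, those that kept the call included, its adjusted p ran from 0.0186 to 0.208. At 1, 24 and 72 h the log2 fold changes of this cluster were 0.10, 0.08 and -0.16, and the groups overlapped.

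The flavonol synthase with the highest level, Cluster-9242.88569, moved less. It had 25.0, 21.0 and 24.4 CPM in bent stems at 3 h, against 31.4, 23.9 and 32.5 CPM in unbent stems. The groups overlapped through the second unbent library. The log2 fold change was -0.32 ± 0.10 with an adjusted p of 0.0552. Cluster-9242.88569 passed with DESeq2 (adjusted p = 0.0441), with a filter of at least 1 CPM in 3 libraries (0.0446), with the replicate block (0.0471) and without replicate 2 of unbent stems (0.00586, log2 fold change -0.45). The other 2 flavonol synthases, Cluster-9242.79724 and Cluster-31012.0, had log2 fold changes of -0.11 ± 0.24 and -0.74 ± 0.39 at 3 h, and neither passed.

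Green tissue transcripts were also lower in bent stems at 3 h. Of 27 tested clusters for chlorophyll a-b binding proteins, 7 were lower at 3 h and 3 at 1 h, and 0 were called at 24 and 72 h, where 2.03% of all clusters were lower at 3 h and 0.814% at 1 h. Their summed level at 3 h was 3833 to 4224 CPM in bent stems and 4651 to 5198 CPM in unbent stems. At 3 h 0 of 9 tested epidermis markers were called, and their summed level was 134 to 174 CPM in bent stems and 168 to 169 CPM in unbent stems. The epidermis markers include Cluster-9242.53804 and Cluster-9242.40986, which match ANTHOCYANINLESS 2 and are themselves among the clusters described here. Of 23 xylem markers 2 were higher at 3 h, against 3.05% of all clusters, while the median log2 fold change of the 23 was -0.21. Of 13 phloem markers 0 were called. The part of these transcripts in the flavonol synthase values was not tested.

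The dihydroflavonol reductases, which open the branch to anthocyanins, and the 5 leucoanthocyanidin and anthocyanidin enzymes did not pass the test at any time after bending. Dihydroflavonol reductase Cluster-20241.0 had 3.15, 5.61 and 4.61 CPM in bent stems at 72 h, against 6.27, 7.56 and 6.46 CPM in unbent stems. The groups did not overlap (log2 fold change -0.60 ± 0.38, adjusted p = 0.959). Dihydroflavonol reductase Cluster-27370.0, at a lower level, went the other way at 1 h. It had 11, 20 and 15 counts in bent stems, against 4, 5 and 5 counts in unbent stems, and scaled to CPM the groups did not overlap (log2 fold change 1.58 ± 0.77, adjusted p = 0.455). Anthocyanidin reductase Cluster-28451.0 had 0.344, 2.86 and 1.43 CPM in bent stems at 72 h, against 2.34, 4.80 and 4.09 CPM in unbent stems. These groups overlapped, and the log2 fold change of -1.25 had an error of 0.83. Anthocyanin synthase Cluster-28323.0 had log2 fold changes of 0.42 at 1 h, 0.31 at 3 h, -0.44 at 24 h and -0.15 at 72 h, with errors of 0.34 to 0.36.

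At 72 h, 7 of the 9 clusters under an unadjusted p of 0.05 had lower values in bent stems. They were chalcone synthase Cluster-9242.92847, flavonoid 3'-monooxygenase Cluster-9242.25872, flavonoid 3',5'-hydroxylase Cluster-27248.0, leucoanthocyanidin reductase Cluster-9242.97863 and the glucosyltransferases Cluster-27522.0, Cluster-9242.24355 and Cluster-30927.0. The other 2, Cluster-9242.49598 and Cluster-9242.64971, had higher values. Cluster-9242.49598, of 5605 bases, matches a flavonoid 3',5'-hydroxylase with an E value of 4.3e-57. Cluster-9242.64971 matches a flavonoid 3',5'-methyltransferase only weakly (E value 2.6e-09), and its protein domain match is a chromo shadow domain. Neither carries an orthology term. None of the 9 passed the adjustment, with adjusted p-values of 0.821 to 0.906. These clusters were picked for their p and are listed as values only. The share of all clusters that were lower at this p was not taken.

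Among the 18 tested transferases, which attach sugars, malonyl or methyl groups, 1 passed. The UGT74F1-like Cluster-9242.54272 had 238, 193 and 210 CPM in bent stems at 24 h, against 147, 168 and 150 CPM in unbent stems. Every bent library was above every unbent one. It rose by 0.46 ± 0.08 on the log2 scale, with an adjusted p of 0.0182 by edgeR. The 3 libraries before bending had 223, 202 and 203 CPM, within the range of the bent stems at 24 h and above the unbent stems of that time.

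At the other times the bent and unbent values of this transferase lay closer. At 1 h it had 219, 198 and 215 CPM in bent stems, against 182, 172 and 200 CPM in unbent stems (log2 fold change 0.19 ± 0.08, adjusted p = 0.358). At 3 h it had 154, 164 and 163 CPM in bent stems, against 145, 165 and 154 CPM in unbent stems, a log2 fold change of 0.05. At 72 h Cluster-9242.54272 had 178, 168 and 170 CPM in bent stems, against 160, 195 and 217 CPM in unbent stems, a log2 fold change of -0.15. The groups overlapped at 1, 3 and 72 h.

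The bending effect on Cluster-9242.54272 differed between the 4 times in an F test of the interaction (adjusted p = 0.00789). It was the only one of the 45 clusters with a call in that test, which called 2.11% of all clusters, so the count is near the background. At 24 h leaving out a library gave log2 fold changes of 0.38 to 0.53, and the call was lost in 4 of 6 such fits and with limma on FPKM. Leaving out replicate 1 or 3 of either group lost it, and over all settings its adjusted p ran from 1.2e-06 to 0.261. Green tissue markers summed to 7155 to 8062 CPM in bent stems at 24 h and 7417 to 8294 CPM in unbent stems, and 0 of 27 were called at this time.

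**Figure D3:**
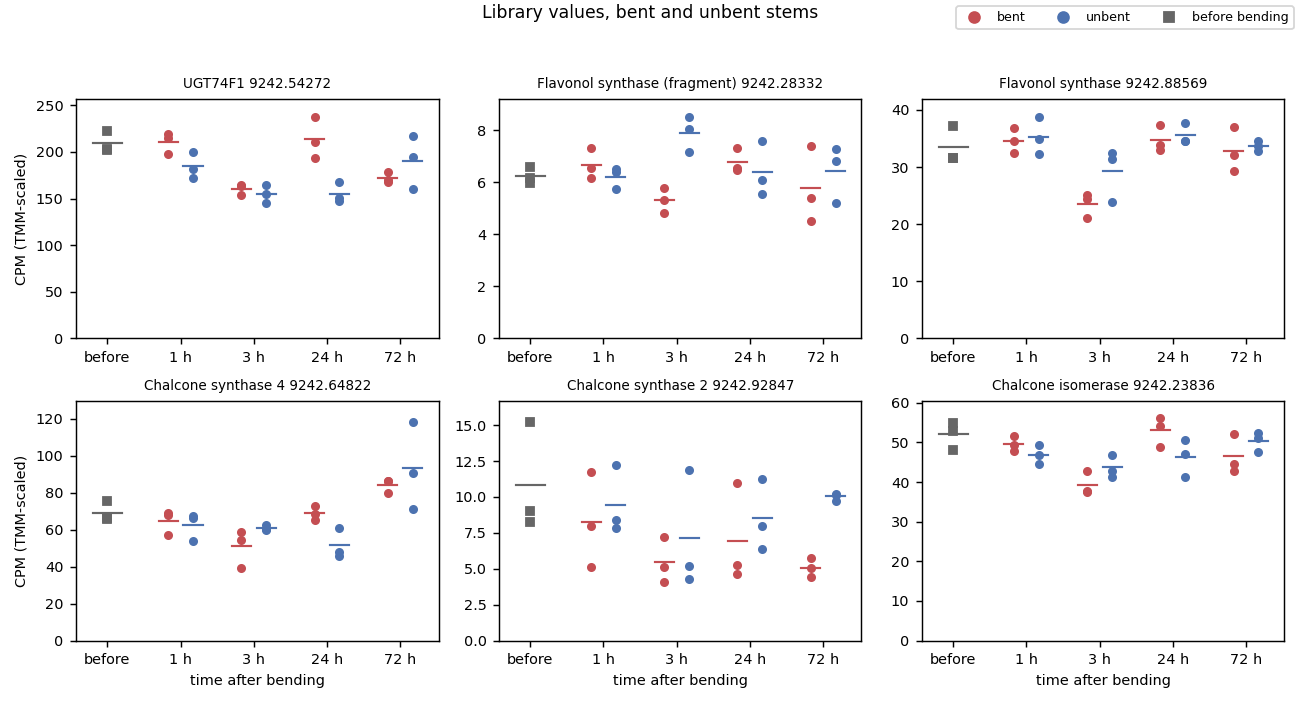
TMM-scaled CPM of 6 clusters in every library: before bending (grey squares), and bent (red, left) and unbent (blue, right) at 1, 3, 24 and 72 h, with group means as lines. At 24 h the UGT74F1-like Cluster-9242.54272 lies at 193 to 238 CPM in bent stems and 147 to 168 CPM in unbent stems. At 3 h the flavonol synthase-like Cluster-9242.28332 lies at 4.83 to 5.76 CPM in bent stems and 7.17 to 8.49 CPM in unbent stems. In its label, (fragment) is part of the name of the matched entry.

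The flavonol glucosyltransferase Cluster-27522.0, which matches F3GT2 of kiwifruit, had 0.176, 0.222 and 0.354 CPM in bent stems at 3 h, against 0.227, 1.18 and 0.983 CPM in unbent stems. The groups overlapped, and the log2 fold change of -1.64 ± 0.58 had an adjusted p of 0.102. Without the lowest unbent library, replicate 1, the adjusted p was 0.0198. The anthocyanidin glucosyltransferase Cluster-9242.24275 had 2.47, 0.941 and 2.06 CPM in bent stems at 3 h, against 4.59, 4.47 and 3.93 CPM in unbent stems, with no overlap. Its adjusted p was 0.285 over all libraries and 0.0116 in a fit of the 6 libraries of that time.

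More of these clusters were called over time in unbent stems than after bending. An F test over the 5 unbent groups called 14 of 45 clusters (31.1%), where 28.8% of all clusters were called. The share is near the background. The 4 comparisons of unbent stems with those before bending share the 3 libraries before bending, and at 1 and 3 h time of day and time in the experiment cannot be told apart. By their labelled hours, the 24 and 72 h libraries fall close to the time of day of those before bending. They also share the unbent libraries with the comparisons of bent stems.

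At 1 h 3 of 45 clusters were lower in unbent stems than before bending, where 10.3% of all clusters were called and 3.85% were lower. At 3 h 2 were higher and 6 lower, where 14.1% of all clusters were called, 8.24% higher and 5.88% lower. At 24 h 2 were higher and 5 lower, where 8.4% of all clusters were called, 4.66% higher and 3.75% lower. At 72 h 2 were lower, where 10.3% of all clusters were called and 4.76% were lower. The median log2 fold change of the 45 clusters was -0.18 at 1 h, -0.25 at 3 h, -0.21 at 24 h and -0.13 at 72 h, against medians of -0.03 to -0.01 over all clusters. Without replicate 2 before bending these medians were -0.09 at 1 h, -0.25 at 3 h, -0.03 at 24 h and 0.02 at 72 h over 48 clusters, so the sign at 72 h turned with 1 library. At 24 h the median was -0.31 without replicate 1 before bending, -0.06 without replicate 3 before bending and -0.12 without replicate 2 of unbent stems. At 72 h it was -0.01 without replicate 1 of unbent stems and -0.08 without replicate 3 of unbent stems. Of the 11 clusters called at any of these times, 6 were transferases, which made up 18 of the 45 tested. Among the 6 were Cluster-9242.24355 and Cluster-9242.24359, which may be pieces of 1 gene.

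Of the 45 clusters, 1 was called lower at all 4 times. This glucosyltransferase, Cluster-9242.24359, which matches flavonoid 3-O-glucosyltransferase 6 of strawberry, had 37.8, 38.1 and 35.9 CPM before bending. In unbent stems it had 22.8, 20.8 and 20.9 CPM at 1 h, 13, 14.5 and 11 CPM at 3 h, 23.8, 29.0 and 24.9 CPM at 24 h and 20.5, 22.4 and 22.5 CPM at 72 h. No later unbent library reached the level before bending.

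It fell by 0.79 at 1 h, 1.54 at 3 h, 0.52 at 24 h and 0.77 at 72 h on the log2 scale, each with an error of 0.11. The adjusted p-values of Cluster-9242.24359 were at most 0.000792 at the 4 times, and every call remained under all settings tried. In bent stems it had 13.8, 15 and 13 CPM at 3 h, and the log2 fold changes of bent over unbent stems were 0.18, 0.12, -0.07 and -0.02 at the 4 times. Bent and unbent stems thus overlapped in this dip. The neighbouring Cluster-9242.24355, a glucosyltransferase fragment that also has fractional counts, fell too, by 0.96 ± 0.22 at 3 h and 0.94 ± 0.22 at 24 h (adjusted p = 0.0013 and 0.00319).

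The cytochrome P450 Cluster-9242.94872 dipped at 1 h. It had 1.87, 2.07 and 1.19 CPM in unbent stems at 1 h, against 6.03, 5.88 and 5.36 CPM before bending. It fell by 1.76 ± 0.25 on the log2 scale (adjusted p = 2.94e-07), a call that remained under all settings tried. Bent stems at 1 h had 1.13, 2.09 and 2.00 CPM, which overlapped the unbent ones. At 3 h unbent stems had 4.48, 4.67 and 4.40 CPM, and at 24 and 72 h they had 5.02 to 8.27 CPM, around the level before bending. The Swiss-Prot match is a flavonoid 3'-monooxygenase of the CYP75B family, whereas the best NCBI protein match is a CYP76C2-like enzyme, so its place in flavonoid synthesis is uncertain.

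Of the other transferases, F3GT2-like Cluster-27522.0 had 0.415, 0.776 and 0.734 CPM in unbent stems at 1 h, against 2.75, 3.36 and 1.68 CPM before bending. It fell by 1.99 ± 0.47 at 1 h and by 1.70 ± 0.45 at 3 h (adjusted p = 0.00197 and 0.00614), and at 72 h it had 2.34, 3.04 and 2.31 CPM, within the range before bending. The call at 3 h was lost without replicate 2 before bending (-1.46) or replicate 1 of unbent stems (-1.25). The UGT74F1-like Cluster-9242.54272 fell by 0.44 ± 0.08 at 3 h and 0.43 ± 0.08 at 24 h, with adjusted p-values of 0.000147 and 0.000459. UGT89B1-like Cluster-9242.12302 fell by 0.55 ± 0.18 at 24 h and 0.57 ± 0.18 at 72 h, with adjusted p-values of 0.0431 and 0.0328. Anthocyanidin glucosyltransferase Cluster-9242.50773 rose by 0.61 ± 0.18 at 24 h (adjusted p = 0.0293). The calls of the last 2 clusters were lost without the 3 libraries richest in ribosomal RNA and in at least 3 of 6 fits with a library left out, among them replicates 1 and 2 before bending. In these fits the log2 fold changes of Cluster-9242.12302 were -0.71 to -0.46 at 24 h and -0.74 to -0.32 at 72 h, and those of Cluster-9242.50773 were 0.50 to 0.71.

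**Figure D4:**
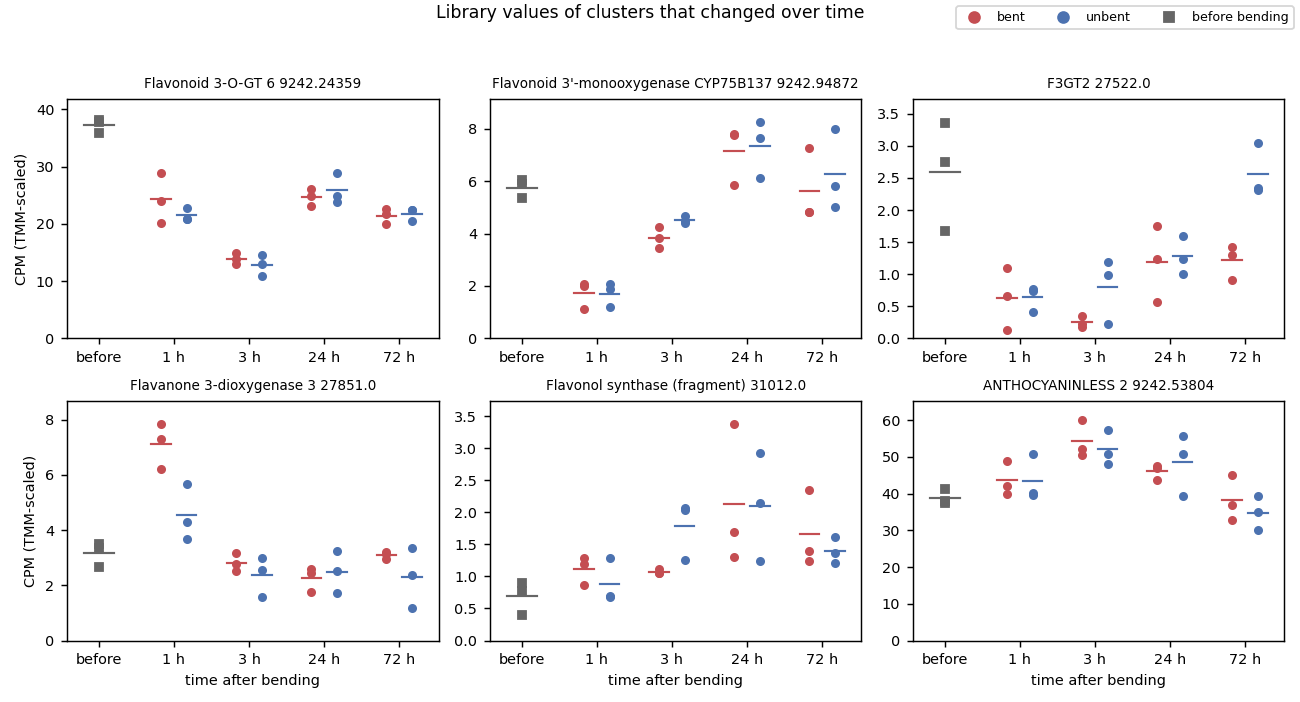
TMM-scaled CPM of 6 clusters in every library: before bending (grey squares), and bent (red, left) and unbent (blue, right) at 1, 3, 24 and 72 h, with group means as lines. Cluster-9242.24359 lies at 11 to 14.5 CPM in unbent stems at 3 h and 35.9 to 38.1 CPM before bending, and Cluster-9242.94872 at 1.19 to 2.07 CPM in unbent stems at 1 h and 5.36 to 6.03 CPM before bending, with bent stems at like values.

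Early and late enzymes also changed over time in unbent stems. Chalcone isomerase Cluster-9242.23836 fell by 0.25 ± 0.08 at 3 h (adjusted p = 0.0365). Leucoanthocyanidin reductase Cluster-9242.97863 had 3.23, 5.59 and 3.10 CPM in unbent stems at 3 h, against 7.70, 6.72 and 4.83 CPM before bending. It fell by 0.70 ± 0.24 at 3 h and 0.73 ± 0.24 at 24 h (adjusted p = 0.0416 and 0.0445), although its libraries overlapped at both times. The calls of both enzymes were lost without the 3 libraries richest in ribosomal RNA, and without replicate 1 or 2 before bending or replicate 1 or 3 of unbent stems. With a library left out, the log2 fold changes of the isomerase were -0.30 to -0.20, and those of the reductase were -1.01 to -0.54 at 3 h and -0.99 to -0.51 at 24 h.

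A flavonol synthase match of 1322 bases, with an E value of 6.6e-33 and no orthology term, went the other way. Cluster-31012.0 had 2.04, 1.25 and 2.07 CPM in unbent stems at 3 h and 2.92, 1.24 and 2.14 CPM at 24 h, against 0.402, 0.776 and 0.893 CPM before bending. All these libraries were above those before bending. It rose by 1.35 ± 0.41 at 3 h and 1.57 ± 0.41 at 24 h (adjusted p = 0.018 and 0.0081). The call at 3 h was lost without replicate 1 before bending or replicate 1 or 3 of unbent stems (1.09 to 1.25), and that at 24 h without replicate 1 before bending (1.31) or of unbent stems (1.25).

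The homeobox factor Cluster-9242.53804, whose Arabidopsis match ANTHOCYANINLESS 2 acts in anthocyanin accumulation below the epidermis, had 57.4, 48.0 and 50.8 CPM in unbent stems at 3 h, against 41.2, 38.0 and 37.5 CPM before bending. It rose by 0.42 ± 0.13 (adjusted p = 0.028). Its bent libraries at 3 h, with 60.1, 50.6 and 52.3 CPM, overlapped the unbent ones. The call was lost without replicate 2 or 3 before bending or replicate 1 or 3 of unbent stems, with log2 fold changes of 0.35 to 0.48 over all 6 such fits, and with limma on FPKM.

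Chalcone synthase Cluster-9242.64822 passed the F test over time (adjusted p = 0.00286) but no single comparison by edgeR with all libraries. It had 47.9, 45.6 and 60.7 CPM in unbent stems at 24 h and 71.4, 90.5 and 118 CPM at 72 h, against 65.8, 75.2 and 66.5 CPM before bending. The log2 fold changes were -0.43 ± 0.16 at 24 h and 0.43 ± 0.16 at 72 h (adjusted p = 0.113 and 0.0937). Both passed for Cluster-9242.64822 with DESeq2 (0.0172 and 0.0177) and without the low-count filter (0.000231 and 0.000507), and that at 72 h also without replicate 1 of unbent stems (0.0179). Green tissue markers changed over the same times. In unbent stems they summed to 4651 to 5198 CPM at 3 h and 7417 to 8294 CPM at 24 h, against 5422 to 6225 CPM before bending. Of 27 tested, 16 were lower at 3 h and 14 higher at 24 h, and their part in the values above was not tested.

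Within groups, a chalcone synthase and several enzymes of later steps varied together. Deviations of log2(CPM + 0.5) from the group mean were compared over the 27 libraries for the 14 tested clusters with a flavonoid orthology term. Their 91 pairs had a median Pearson correlation of 0.21 (-0.58 to 0.82), and all 990 pairs of tested clusters had a median of 0.04. Chalcone synthase Cluster-9242.92847, dihydroflavonol reductase Cluster-20241.0, flavonoid 3',5'-hydroxylase Cluster-27248.0, anthocyanidin reductase Cluster-28451.0 and leucoanthocyanidin reductase Cluster-9242.97863 stood out, with 0.53 to 0.82 over their 10 pairs. These 5 were chosen after their values were seen, and the correlations are descriptions of libraries that share depth and scaling. The highest value, 0.82, was between the chalcone synthase and the dihydroflavonol reductase. The chalcone synthase with the higher level, Cluster-9242.64822, is not among them.

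In unbent stems at 3 h, for example, Cluster-20241.0 had 3.74, 9.21 and 3.78 CPM, Cluster-9242.92847 had 4.25, 11.9 and 5.17 CPM, and Cluster-28451.0 had 1.08, 4.28 and 1.97 CPM. Replicate 2 was highest in each. In bent stems at 3 h the same clusters had 2.47, 5.10 and 3.89 CPM, 4.06, 7.20 and 5.13 CPM, and 0.0588, 1.5 and 1.47 CPM, and replicate 1 was lowest in each. Over the 9 groups, replicate 1 was lowest in 7 groups for Cluster-9242.92847, in 8 for Cluster-20241.0, Cluster-27248.0 and Cluster-28451.0, and in 5 for Cluster-9242.97863. Over all clusters, however, libraries with the same number did not deviate together.

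The ribosomal RNA share moved with these 5 clusters in part. The library richest in ribosomal RNA was also the highest of its group in 5 of 9 groups for the first 4 clusters and in 2 of 9 for leucoanthocyanidin reductase. The correlation of these deviations with those of the log2 ribosomal RNA share was 0.54 for Cluster-9242.92847, 0.43 for Cluster-20241.0, 0.34 for Cluster-27248.0 and Cluster-28451.0 and 0.26 for Cluster-9242.97863. Its part in the covariation was not tested. At 3 h the log2 fold changes of bent over unbent stems of the 5 clusters, in the order named, were -0.36, -0.52, -0.95, -1.24 and -0.45, and at 72 h they were -0.99, -0.60, -1.69, -1.25 and -0.48. None passed the test.

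**Figure D5:**
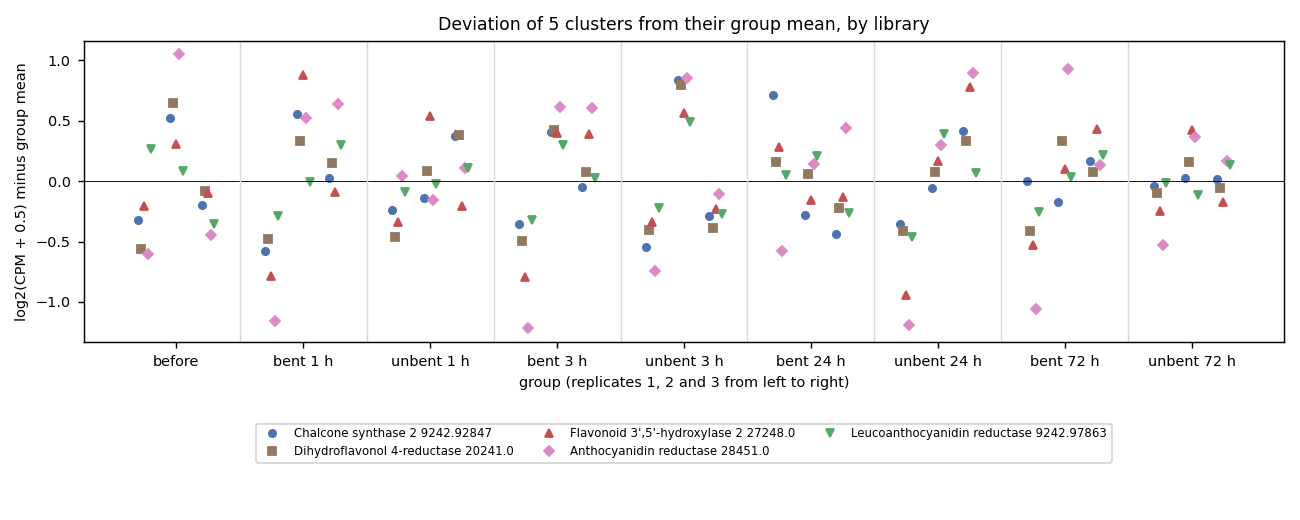
Deviation of log2(CPM + 0.5) from the mean of the group for chalcone synthase Cluster-9242.92847 and 4 clusters of later steps in each of 27 libraries, by group, with replicates 1, 2 and 3 from left to right. Markers of 1 library tend to lie on the same side of 0, as in replicate 2 of unbent stems at 3 h, and the pairwise correlations are 0.53 to 0.82.

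Genes that supply or control the pathway were matched by name. Of 20 general phenylpropanoid clusters 18 were tested, and 1 was lower after bending, at 3 h, where 2.03% of all clusters were lower. A single call in a list of this length is near the background. This phenylalanine ammonia-lyase, the first enzyme of the phenylpropanoid pathway, Cluster-9242.11300, had 2.35, 3.43 and 4.48 CPM in bent stems at 3 h, against 6.13, 8.75 and 7.45 CPM in unbent stems. The groups did not overlap. It fell by 1.12 ± 0.25 on the log2 scale (adjusted p = 0.00685). Without replicate 1 of bent stems the log2 fold change was -0.91 and the adjusted p 0.067.

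Of 3 clusters for acetyl-CoA carboxylase, which makes malonyl-CoA, 1 was higher after bending, where 1.11% of all clusters were higher at 1 h and 3.05% at 3 h. Neither Cluster-9242.57261, which matches a chloroplast biotin carboxyl carrier protein, nor Cluster-9242.70635, which matches acetyl-CoA carboxylase 1, had a call after bending. The biotin carboxyl carrier protein Cluster-9242.24788, a subunit of the plastid enzyme that feeds fatty acid synthesis, had 70.1, 50.6 and 48.8 CPM in bent stems at 3 h, against 35.2, 31.7 and 30.6 CPM in unbent stems. It rose by 0.80 ± 0.13 at 3 h and by 0.48 ± 0.13 at 1 h (adjusted p = 0.000137 and 0.041). At 1 h its groups overlapped narrowly, with 57.4, 41.6 and 60.0 CPM in bent stems and 35.9, 36.2 and 41.7 CPM in unbent stems. The call at 3 h remained under all settings tried, while that at 1 h was lost without replicate 1 or 3 of bent stems, without replicate 1 or 2 of unbent stems and with limma (0.38 to 0.63 with a library left out).

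Of 16 tested regulators, 1 was lower at 3 h, against 2.03% of all clusters. One call in so short a list is near the background. Of the 7 clusters that match MYB4, the others had no call after bending. The called cluster, Cluster-9242.98225, matches an entry named transcription factor MYB4, while Cluster-17099.1 matches an entry named transcription repressor MYB4. Cluster-9242.98225 had 1.65, 1.77 and 1.53 CPM in bent stems at 3 h, against 3.97, 2.11 and 3.83 CPM in unbent stems. The bent libraries were all below the unbent ones. It fell by 1.01 ± 0.28 (adjusted p = 0.0218). This call was lost with limma on FPKM, without any 1 of the bent libraries, without replicate 1 or 3 of unbent stems (-1.06 to -0.86 in these 5 fits), and without the 3 libraries richest in ribosomal RNA. None of these lists had a call at 24 or 72 h, and the 2 tested other flavonoid enzymes and the 1 transport cluster had no call at any time after bending. The other flavonoid enzymes include Cluster-9242.83632 at 18.5 FPKM, which matches a naringenin,2-oxoglutarate 3-dioxygenase fragment. Its description holds none of the words that chose the clusters described above.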

How the data were processed

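Poly(A) RNA of whole stems was read from both ends, per the labels. The submitters' processing notes name RSEM 1.2.28, and the deposited table holds expected counts per cluster. Which assembler built the clusters is not given in the sources. Of its values 8.05% were off a whole number by over 0.001, and all were rounded. The authors' second table gives FPKM, cluster lengths in bases and database matches.

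Counts were fitted in R 4.3.3 with edgeR 4.0.16 (filterByExpr, TMM, robust quasi-likelihood, 1 coefficient per group, all 27 libraries), tested on simulated data. The biological coefficient of variation was 0.158. Alternatives used DESeq2 1.42.0, limma 3.58.1 on log2(FPKM + 0.1) and log2(FPKM + 1), other filters and scalings, single comparisons and left-out libraries. Tables and figures used Python 3.11.15, pandas 2.3.3, NumPy 2.4.6 and matplotlib 3.10.9. p-values measure the spread between libraries of 1 experiment.

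Members and lists were chosen with earlier results of these data known. Clusters named by rule had a call after bending, were among the 10 smallest p-values of the F test over time, or had 1 of the 3 highest FPKM means of their role, and others were named after their values were seen. No 2 libraries of a group were duplicates (chi-square per degree of freedom 4.05 to 16.1). Same-numbered libraries correlated at -0.0298 to 0.0578, so numbers were not taken as pairs.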

Additional observations from a re-analysis of the deposited data

Results flagged for a closer look

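The bending effect on the UGT74F1-like transferase Cluster-9242.54272 differed between the 4 times, with an adjusted p of 0.00789 in edgeR's F test of the interaction. This was 1 call in 45 clusters, where the test called 2.11% of all clusters, so the count is near the background. The log2 fold changes of bent over unbent stems were 0.19 at 1 h, 0.05 at 3 h, 0.46 at 24 h and -0.15 at 72 h, each with an error of 0.08. All 3 bent libraries were above the unbent ones at 24 h. In limma on FPKM the interaction was not called.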

How the results depend on the processing

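No called value changed sign under any setting. Counts below are of the clusters tested, 45 with the main settings and 41 to 50 under the others. For bent against unbent stems at 3 h, where 1 was called, there were 0 calls with no filter on low counts or without the 3 libraries richest in ribosomal RNA, a choice made after seeing the data. There were 2 with at least 1 CPM in 3 libraries, with DESeq2 and with the replicate block. At 24 h (1 call) there were 2 with no filter and 0 with limma at either pseudocount. At 72 h (0 calls) there was 1 in a fit of those 6 libraries. For unbent stems against those before bending, leaving out the libraries richest in ribosomal RNA gave 5 calls at 3 h (8 otherwise), 4 at 24 h (7 otherwise) and 1 at 72 h (2 otherwise). limma at either pseudocount gave 4 at 24 h and 1 at 72 h, and DESeq2 gave 4 at 72 h. The interaction test (1 call) gave 2 with no filter, 2 with DESeq2 and 0 with limma at either pseudocount. The causes were not tested.

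Leaving out each library in turn gave 0 to 0 calls at 1 h, 0 to 1 at 3 h, 0 to 1 at 24 h and 0 to 0 at 72 h for bending. It gave 3 to 4 at 1 h, 3 to 9 at 3 h, 3 to 8 at 24 h and 1 to 3 at 72 h for unbent stems against before bending, 0 to 0 for 3 h minus 1 h, 13 to 15 for the F test over time and 1 to 1 for the interaction. The replicate block moved no other count by over 1.5 times. Depth limits the clusters under 1 FPKM, whose standard errors reached 1.01 for bending at a single time.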

Other observations

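The anthocyanidin glucosyltransferase match Cluster-9242.24275, whose orthology term UGT72E is a family known for monolignol glucosylation, had 1 library apart from the rest. It had 18.5 CPM in replicate 3 before bending, against 2.81 and 5.43 CPM in the other 2 libraries of that group, and 0.941 to 8.93 CPM in all others. The log2 fold change of unbent stems at 1 h over those before bending was -1.62 ± 0.53, with an adjusted p of 0.0601. It passed for Cluster-9242.24275 with DESeq2 (0.0218), with at least 1 CPM in 3 libraries (0.0458), without the libraries richest in ribosomal RNA (0.0409) and without replicate 1 (0.00684) or 2 (0.0476) before bending. All these fits kept replicate 3 before bending, the library apart from the rest. Without that replicate Cluster-9242.24275 was not called at 1 h.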
